A study of Mus musculus with 6 samples.

Results

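The genes described here are the 10 that make, recycle and break down coenzyme A in the count table of the series: the pantothenate kinases Pank1, Pank2, Pank3 and Pank4, the later synthesis enzymes Ppcs, Ppcdc and Coasy, the coenzyme A hydrolases Nudt7 and Nudt19, and the pantetheinase Vnn1. They are 10 of the 57180 genes listed, each found by its name, and all 10 had enough counts to be among the 17320 genes tested. They were chosen because Pank1 had the smallest p value of the comparison between treated and control mice, so every difference between the groups in these 10 genes is given as a description with its standard error and not as a test. RNA came from inguinal white adipose tissue (subcutaneous fat) of wild-type mice with obesity induced by a high-fat diet. In 3 libraries (ADISSP) the mice had received recombinant Adissp, a secreted protein of fat tissue, at 68 nmol/kg every day for 33 days, and 3 libraries came from mice labelled as controls (Control). All 6 libraries share the wild-type genotype, the diet and the labelled batch, and the labels give neither age, sex nor what the controls received. The libraries are described as biological triplicates of total RNA depleted of ribosomal RNA.

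Coenzyme A carries acetyl and fatty acyl groups, and the breakdown of fatty acids, the tricarboxylic acid cycle and the building of new fatty acids all run on it. Cells make it from pantothenate (a B vitamin): pantothenate kinase adds a phosphate in the rate-limiting step, Ppcs joins cysteine, Ppcdc removes a carboxyl group and Coasy completes the molecule. Of the 4 Pank genes, mammalian Pank4 lacks kinase activity and acts as a phosphatase on pathway intermediates. Pank1 is known in mouse liver as a gene switched on by PPAR alpha, the nuclear receptor of fatty acid oxidation. Nudt7 and Nudt19 cleave coenzyme A in peroxisomes, and Vnn1 releases pantothenate from pantetheine outside the cell.

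Libraries held 10357930 to 15658428 counts. Over all genes, 35.0% changed at an adjusted p under 0.05 (quasi-likelihood test of edgeR, Benjamini-Hochberg adjustment), 18.5% higher and 16.5% lower in ADISSP, and in 49.8% the groups did not overlap. The balance of directions moved with the scaling: with TMM factors 52.8% of the changed genes were higher, against 43.8% with upper-quartile factors and 21.0% with library totals. It was 11.9% with limma on log2(TPM + 1), which changes the test as well as the scale. Library totals and log2(TPM + 1) moved the median log2 fold change of all genes by -0.35 and -0.50. Levels below are TMM-scaled CPM (counts over the library size in units of 1e+06), or the deposited TPM (transcripts per 1e+06), which correct for gene length, where genes are compared with each other. Fat cell markers were plainly present, at a summed 18799.7 to 24039.9 CPM in Control and 23486 to 27006 CPM in ADISSP over 10 genes, of which 4 were higher. Control 3 stood apart from Control 1 and 2: 10 skeletal muscle markers summed to 34.4, 43.0 and 9209.65 CPM in Control 1, 2 and 3, and 3243 to 3757 CPM in ADISSP, and 8 B cell markers to 436, 514 and 97.2 CPM in Control and 5.31 to 8.95 CPM in ADISSP. In mixed tissue, fewer cells of a type and less RNA per cell cannot be told apart.

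Pank1 was scarce in control fat and abundant in treated fat. Control 1, 2 and 3 held 231, 265 and 225 counts of it, and ADISSP 1, 2 and 3 held 3382, 2488 and 3142. On the CPM scale the Control libraries read 13.1, 14.6 and 15.4 and the ADISSP libraries 268, 275 and 223, so every treated library stood far above every control and the controls lay close together. The mean went from 14.4 ± 1.15 to 256 ± 28.0 CPM (SD, n = 3 each), a 17.8-fold difference, with a log2 fold change of 4.15 (SE 0.13) in ADISSP over Control. Of the 17320 genes tested, 50 had a higher log2 fold change. The value that chose Pank1 was its p of 1.56e-10 in edgeR, and the next genes in that order were the fatty acid elongase Elovl6 (1.93e-10) and the cytochrome P450 gene Cyp2b10 (2.60e-10), with log2 fold changes of 3.48 and 4.65. All 3 had the same edgeR adjusted p of 1.37e-06. Across 14 other settings of the processing, which share these libraries, the log2 fold change of Pank1 ran from 3.40 on log2(TPM + 1) to 4.25.

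**Figure D1:**
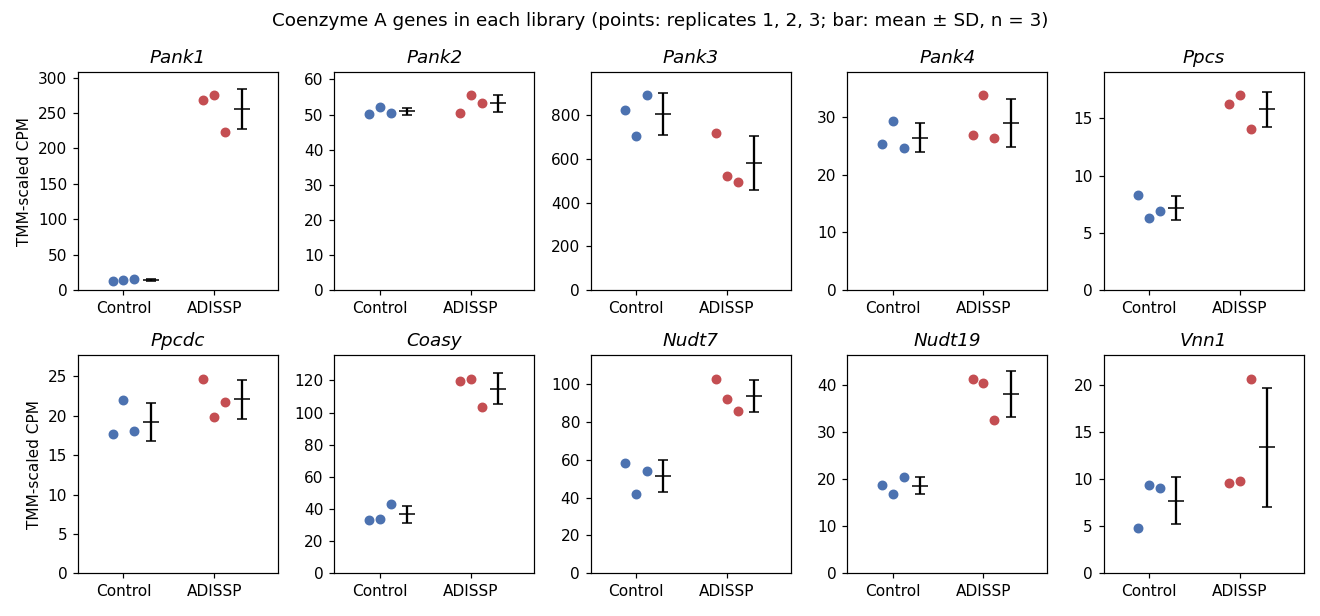
TMM-scaled CPM of the 10 coenzyme A genes, each on its own axis from 0, with 1 point per library for Control (blue) and ADISSP (red) and bars for the mean ± SD (n = 3). Pank1 lies at 13.1 to 15.4 CPM in Control and 223 to 275 CPM in ADISSP, Coasy, Ppcs, Nudt7, Nudt19 and, narrowly, Vnn1 also separate the groups, and Pank2, Pank3, Pank4 and Ppcdc overlap.

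Pank3, the main pantothenate kinase transcript of control fat, had a lower mean in treated fat, by an amount that depended on the scaling. Control 1, 2 and 3 read 824, 705 and 892 CPM, and ADISSP 1, 2 and 3 read 721, 524 and 495 CPM. ADISSP 1 was above Control 2, so the groups overlapped. Its log2 fold change was -0.48 (SE 0.17), which did not pass the threshold over all genes, and it was -1.07 on log2(TPM + 1). Relative to the median of all genes it lay between -0.65 and -0.36 in the 14 other settings. It passed the threshold in 9 of these, DESeq2 and the fits without Control 2 (-0.57) or ADISSP 1 (-0.65) among them. It did not pass without Control 1 (-0.46), Control 3 (-0.40), ADISSP 2 (-0.39) or ADISSP 3 (-0.36). The settings share the same libraries, so nothing is read from that count.

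Pank2 and Pank4 lay close together in the groups on the TMM scale. Pank2 stood at 50.2 to 52.0 CPM in Control and 50.6 to 55.5 CPM in ADISSP (log2 fold change 0.06, SE 0.09). Pank4 stood at 24.6 to 29.3 CPM in Control and 26.2 to 33.7 CPM in ADISSP (0.13, SE 0.14). Both differences were negative with library totals (-0.29 and -0.23) and on log2(TPM + 1) (-0.50 and -0.44), scales on which the median of all genes was -0.36 and -0.51. Pank2 passed the threshold as lower on both of these scales and Pank4 on log2(TPM + 1). Relative to the median of all genes, Pank2 lay between 0.0057 and 0.11 and Pank4 between 0.017 and 0.22 in the 14 other settings.

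The make-up of the pantothenate kinase transcripts differed between the groups, with Pank1 taking a larger share and Pank3 a smaller one. Shares within a library do not depend on how libraries are scaled. Of the summed TPM of the 4 Pank genes, Control 1, 2 and 3 had 1.21%, 1.52% and 1.33% as Pank1, and ADISSP 1, 2 and 3 had 21.9%, 26.6% and 24.0%. Pank3 held 85.4%, 82.1% and 86.3% in Control and 66.0%, 56.7% and 59.6% in ADISSP. In TPM, Pank3 exceeded Pank1 70.5-, 54.1- and 65.0-fold in the Control libraries and 3.02-, 2.13- and 2.48-fold in the ADISSP libraries. The shares of Pank2 (7.34% to 9.10% in Control, 6.95% to 9.66% in ADISSP) and Pank4 (5.04% to 7.23% and 5.18% to 7.72%) overlapped between the groups. Pank3 was the most abundant of the 4 in every library. Summed over the 4, the Control libraries read 558, 517 and 554 TPM and the ADISSP libraries 420.4, 337 and 331 TPM, while their summed TMM-scaled CPM overlapped, at 801 to 982 in Control and 798 to 1067 in ADISSP.

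**Figure D2:**
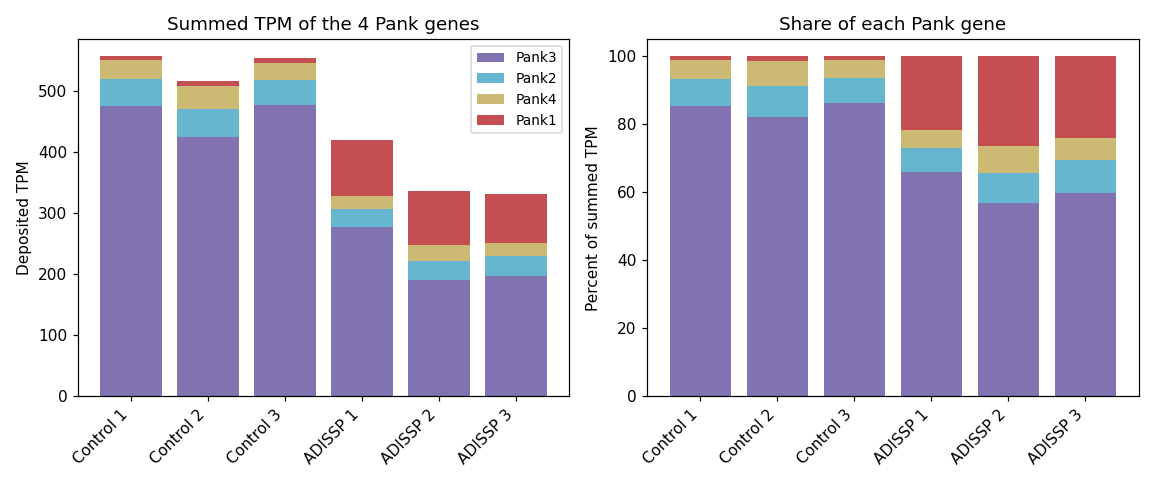
Deposited TPM of Pank1, Pank2, Pank3 and Pank4 stacked for each library (left) and as percent of their sum (right). The Pank1 share is 1.21% to 1.52% in Control and 21.9% to 26.6% in ADISSP, with Pank3 the largest share throughout.

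Pank1, Pank2 and Pank3 each carry a microRNA gene of a single family inside the gene, and the mature sequences are shown because they tie the kinase genes to one another. By the GRCm38.p6 coordinates of RefSeq and the GENCODE exons of the same build, Mir107 lies in Pank1, Mir103-2 in Pank2 and Mir103-1 in Pank3, each on the host's strand and outside every annotated host exon. Capitals mark the seed, bases 2 to 8, which pairs with target RNAs.
mmu-miR-107-3p (Pank1): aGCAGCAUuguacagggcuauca
mmu-miR-103-3p (Pank2 and Pank3): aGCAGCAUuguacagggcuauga
Both share the seed, and counted from the 5′ end the only substitution from miR-103-3p to miR-107-3p is G22C. A library of fragmented total RNA is not built to capture mature microRNAs, and few counts fell on these genes. For Mir107, Control 1 had 3 counts, Control 2 and 3 had 0, and ADISSP 1, 2 and 3 had 7, 1 and 3. Mir103-1 had 0, 4 and 0 in Control and 0, 1 and 1 in ADISSP, and Mir103-2 had 12, 13 and 5 in Control and 0, 1 and 6 in ADISSP. None of the 3 passed the filter on low counts, so none was tested.

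RefSeq's promoter windows, 250 bases before to 50 after an annotated start in GRCm38.p6, were found for 8 of the 10 genes, 12 windows in all. Shown are the windows of Pank1, the gene on which the group was chosen, and of Pank3, the most abundant kinase. Pank1 has 2 annotated starts, and the gene-level counts do not separate transcripts from each. Capitals mark the CCAAT box (CCAAT, or ATTGG for the other strand).
Pank1, upstream start, chr19:34879406-34879705, reverse strand: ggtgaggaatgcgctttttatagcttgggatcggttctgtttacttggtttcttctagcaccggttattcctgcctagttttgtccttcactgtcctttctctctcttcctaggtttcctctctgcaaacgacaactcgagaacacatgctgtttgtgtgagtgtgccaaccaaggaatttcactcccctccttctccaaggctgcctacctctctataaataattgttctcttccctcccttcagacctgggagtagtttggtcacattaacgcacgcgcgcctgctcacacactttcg
Pank1, downstream start, chr19:34877868-34878167, reverse strand: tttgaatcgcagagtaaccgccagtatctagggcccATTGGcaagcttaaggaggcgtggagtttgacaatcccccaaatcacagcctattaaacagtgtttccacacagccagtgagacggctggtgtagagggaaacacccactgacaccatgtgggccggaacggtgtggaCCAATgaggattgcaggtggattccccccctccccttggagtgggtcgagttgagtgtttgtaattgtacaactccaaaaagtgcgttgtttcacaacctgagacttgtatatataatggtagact
Pank3, chr11:35769245-35769544, forward strand: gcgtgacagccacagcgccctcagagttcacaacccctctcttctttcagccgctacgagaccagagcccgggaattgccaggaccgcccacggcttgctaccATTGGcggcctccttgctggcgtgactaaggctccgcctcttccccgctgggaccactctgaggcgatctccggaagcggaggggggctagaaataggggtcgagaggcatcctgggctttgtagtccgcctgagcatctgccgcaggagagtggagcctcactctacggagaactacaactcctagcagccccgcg
The downstream Pank1 window held 2 CCAAT boxes, on opposite strands, the upstream window held 0, and 37.4% of all 32851 windows hold at least 1. Guanine and cytosine made up 48.0% and 49.7% of the Pank1 windows and 63.0% of the Pank3 window. On both strands, the 12 windows held no direct repeat of the PPAR type (AGGTCA, any base, AGGTCA, in 0.0396% of all windows), no estrogen-related receptor element (TCAAGGTCA, 0.423%) and no cyclic AMP response element (TGACGTCA, 1.79%). The half-site AGGTCA, which is contained in the PPAR repeat and in the estrogen-related receptor element, was in the windows of Ppcs and Ppcdc (16.3% of all windows). A nuclear respiratory factor element (0.971%) was in both windows of Nudt7, which overlap.

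The transcript of the enzyme that ends the pathway was higher, and those of the middle steps were uneven. Coasy, which carries the last pair of reactions, stood at 33.4, 33.5 and 43.0 CPM in Control 1, 2 and 3 and 119.8, 121 and 104 CPM in ADISSP, with no overlap. Its log2 fold change was 1.65 (SE 0.13). Ppcs, which couples phosphopantothenate to cysteine, stood at 8.34, 6.28 and 6.90 CPM in Control and 16.2, 17.0 and 14.1 CPM in ADISSP (1.13, SE 0.17), again with no overlap. Ppcdc, the decarboxylase between them, did not follow: 17.7 to 22.0 CPM in Control overlapped 19.8 to 24.7 CPM in ADISSP (0.20, SE 0.14), and its difference was negative with library totals (-0.16) and on log2(TPM + 1) (-0.35).

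Genes that break coenzyme A down were also higher. Nudt7 stood at 58.3, 42.0 and 53.8 CPM in Control 1, 2 and 3 and 103, 92.2 and 85.9 CPM in ADISSP (0.87, SE 0.13). Nudt19 stood at 18.7, 16.8 and 20.5 CPM in Control and 41.4, 40.5 and 32.5 CPM in ADISSP (1.03, SE 0.13). In both genes every treated library was above every control, although on log2(TPM + 1) the difference of Nudt7 was 0.29 and did not pass the threshold. Vnn1, which returns pantothenate from pantetheine, stood at 4.82, 9.36 and 9.02 CPM in Control and 9.59, 9.84 and 20.7 CPM in ADISSP (0.80, SE 0.38). Its groups did not overlap, but ADISSP 1 and 2 stood just above Control 2 and 3, ADISSP 3 was well above the rest, and without ADISSP 3 the log2 fold change was 0.34.

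Of the 10 genes, 5 passed the threshold over all genes, all of them higher (Pank1, Coasy, Ppcs, Nudt19 and Nudt7), beside 35.0% of all genes called in either direction and 18.5% called higher. In 6 the groups did not overlap, beside 49.8% of all genes. Since the genes were chosen on this contrast, nothing is read from these counts. The median log2 fold change of the 10 was 0.83, and that of all genes tested was -0.01. The count of 5 higher was the same without Control 3, in a fit that called 46.7% of all genes, 50.5% of those higher. It was 4 on log2(TPM + 1), which called 62.4% of all genes, 11.9% of those higher.

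**Figure D3:**
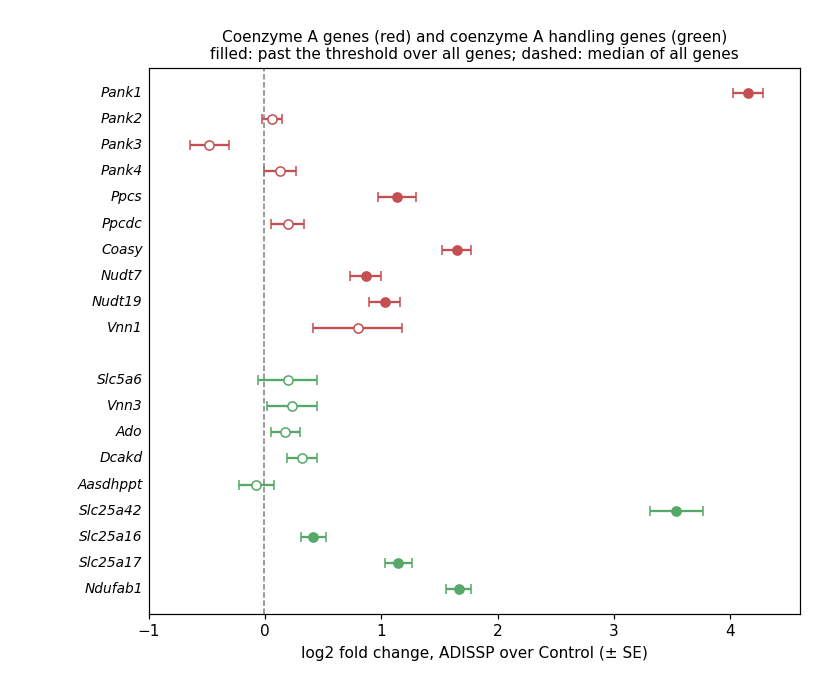
Log2 fold change of ADISSP over Control with its standard error, from edgeR with 3 libraries per group, for the 10 coenzyme A genes (red) and 9 coenzyme A handling genes (green). Filled points passed the threshold over all genes and the dashed line is the median of all genes, -0.01. Pank1 (4.15) and Slc25a42 (3.54) lie farthest right.

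Ordered by TPM, control fat had Pank3 highest (459.9 ± 30.7), then Coasy (53.7 ± 5.03), Pank2 (43.8 ± 3.19), Nudt7 (38.5 ± 5.53), Pank4 (32.1 ± 4.82), Nudt19 (29.3 ± 1.26), Ppcs (18.9 ± 2.88), Ppcdc (14.1 ± 2.46), Vnn1 (13.5 ± 4.49) and Pank1 last (7.32 ± 0.541). Neighbours from Pank2 down to Nudt19 overlapped between libraries, as did Ppcdc and Vnn1, so their order is not fixed by these data. In treated fat Pank1 was the third, at 87.0 ± 6.59 TPM, behind Pank3 (222 ± 48.1) and Coasy (113 ± 6.12). It was followed by Nudt7 (47.0 ± 4.24), Nudt19 (40.0 ± 4.09), Pank2 (30.5 ± 1.40), Ppcs (27.7 ± 1.63), Pank4 (23.3 ± 2.35), Vnn1 (15.8 ± 8.14) and Ppcdc (10.8 ± 1.47). There only the neighbours from Ppcs to Ppcdc overlapped between libraries.

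Skeletal muscle markers differed between libraries. Of the 10, 2 were higher in ADISSP, the myosin heavy chain genes Myh1 and Myh2, beside 18.5% of all genes called higher. Control 3 had the highest sum, 9209.65 CPM, and 15.4 CPM of Pank1, against 13.1 and 14.6 CPM in Control 1 and 2. It did not hold these 2 markers at the treated level: Myh1 stood at 11.5 CPM in Control 3 and 101 to 237 CPM in ADISSP, and Myh2 at 1.44 CPM and 16.6 to 95.4 CPM. With Control 3 as the only control the log2 fold change of Pank1 was 4.05, that of Coasy 1.41, Ppcs 1.19, Nudt19 0.89 and Nudt7 0.80. The part of muscle RNA in these differences was not tested. All 8 markers of brown fat cells were higher, with a sum of 147 to 246 CPM in Control and 4282 to 5054 CPM in ADISSP. Their part in the differences of the coenzyme A genes was not tested. Macrophage markers had a lower sum (8 of 8 called lower, 771 to 863 CPM in Control and 351 to 478 CPM in ADISSP). So had fibroblast markers (4 of 5 called lower, 2216 to 2523 and 1109 to 1513 CPM) and endothelial markers (2 of 5 called lower, 769 to 830 and 546 to 658 CPM). Over all genes 16.5% were called lower, and the part of these markers was not tested either. The share of counts on mitochondrial genes also differed, at 3.13% to 4.20% in Control and 8.43% to 11.1% in ADISSP, and its part was not tested. Mammary epithelium markers were near 0, with a sum of 0.111 to 1.64 CPM over 5 genes, of which 1 to 4 had 0 counts in a library.

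**Figure D4:**
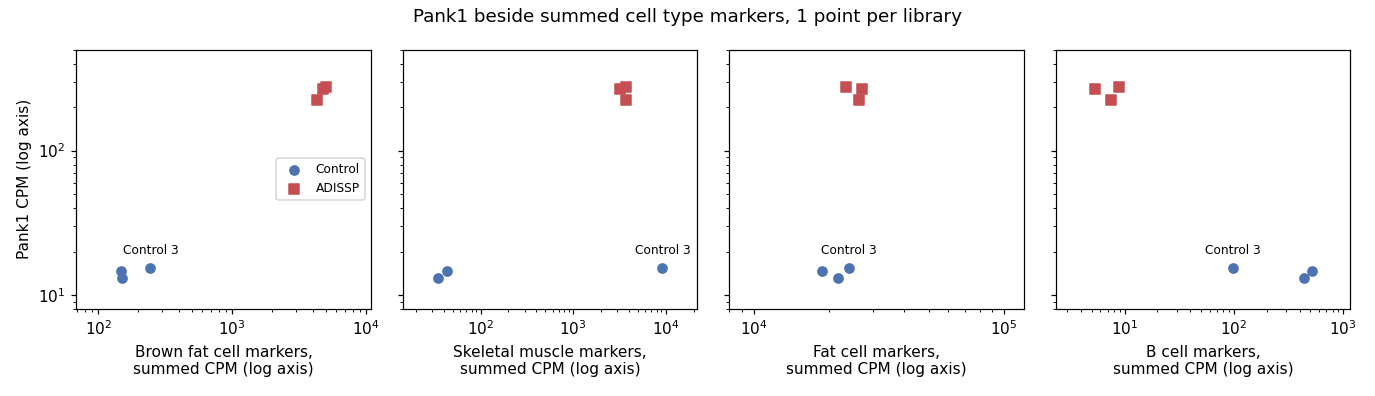
Pank1 CPM against the summed CPM of brown fat cell, skeletal muscle, fat cell and B cell markers, both axes on a log scale, with 1 point per library (Control blue circles, ADISSP red squares). Control 3 has the highest muscle sum, 9209.65 CPM, with 15.4 CPM of Pank1, and the ADISSP libraries have 3243 to 3757 CPM with 223 to 275 CPM of Pank1.

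Other genes that move, anchor or use coenzyme A were read from a list of 10, of which 9 were tested, 4 rose and 0 fell (44.4% called, beside 35.0% of all genes), with a median log2 fold change of 0.32. On log2(TPM + 1), 3 were higher and 2 lower, with a median of -0.25. That scale called 62.4% of all genes, and 11.9% of those were higher. Slc25a42, the carrier that brings coenzyme A into mitochondria, rose most. It went from 19.5, 24.0 and 35.5 CPM in Control 1, 2 and 3 to 307, 329.9 and 278 CPM in ADISSP, with no overlap (log2 fold change 3.54, SE 0.22, edgeR adjusted p = 2.95e-05). Ndufab1, the mitochondrial acyl carrier protein, which holds a phosphopantetheine arm taken from coenzyme A, went from 62.9, 58.9 and 69.9 CPM to 219.7, 196 and 191 CPM (1.66, SE 0.11, edgeR adjusted p = 1.56e-05). Processed copies of Ndufab1 in the genome could share its reads. Slc25a17, a peroxisomal carrier of coenzyme A and other cofactors, went from 41.8, 32.3 and 35.9 CPM to 87.7, 78.9 and 76.5 CPM (1.15, SE 0.12, edgeR adjusted p = 1.50e-04). These 3 were among 5 of the 9 tested genes whose groups did not overlap, beside 49.8% of all genes.

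Slc25a16, a relative of Slc25a42, rose slightly from 44.5, 40.9 and 48.6 CPM to 65.9, 55.9 and 56.8 CPM (0.42, SE 0.11, edgeR adjusted p = 0.0164). That call was lost without Control 1 (0.41), Control 2 (0.35) or ADISSP 1 (0.35) and with library totals (0.07), and the value was -0.16 on log2(TPM + 1). The pantothenate transporter Slc5a6 did not pass (0.20, SE 0.25): its highest control was Control 3 (24.0 CPM, against 14.9 in Control 2 and less in Control 1), ADISSP lay at 16.4 to 21.3 CPM, and it passed without Control 3 (0.52). The dephospho-coenzyme A kinase domain gene Dcakd likewise did not pass (0.32, SE 0.13) and passed without Control 3 (0.43). Without Control 3 the count of genes that rose was 6 of 9, in a fit that called 46.7% of all genes, against 35.0% with all libraries. Vnn3, a second vanin (0.24, SE 0.21), Ado, which oxidises the cysteamine that vanins release (0.18, SE 0.13), and Aasdhppt, which transfers the phosphopantetheine arm (-0.07, SE 0.15), did not pass. The mitochondrial hydrolase Nudt8 was too low to be tested, at 0.137 to 0.511 CPM in Control and 0.221 to 1.42 CPM in ADISSP.

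Most tested genes for acyl-CoA synthetases, which attach fatty acids or acetate to coenzyme A, rose. Of 13 tested among 17 listed, 8 rose and 1 fell (69.2% called, beside 35.0% of all genes), with a median of 0.80. On log2(TPM + 1), which called 62.4% of all genes, 5 were higher and 2 lower, with a median of 0.19. Acsl1, named after its values were seen as the most abundant of the list, did not pass (0.28, SE 0.16). It overlapped at 2886 to 3991 CPM in Control and 3685 to 4705 CPM in ADISSP, and its mean TPM was 1369 in Control and 1119 in ADISSP. Acsl5, for long-chain fatty acids, rose from 59.4 to 67.1 CPM in Control to 187 to 199.9 CPM in ADISSP, with a log2 fold change of 1.60 (SE 0.09, edgeR adjusted p = 1.21e-05). The mitochondrial acetyl-CoA synthetase Acss1 rose by 1.95 (SE 0.14) and Acsf2 by 1.37 (SE 0.10), both with an edgeR adjusted p of 2.18e-05. Acsl4 fell, with a log2 fold change of -0.45 (SE 0.11, edgeR adjusted p = 0.0136), a call lost without Control 1 (-0.43), ADISSP 2 (-0.44) or ADISSP 3 (-0.37).

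Among the other Nudix hydrolases more genes rose than fell. Of 17 tested among 19 listed, 9 rose and 2 fell (64.7% called, beside 35.0% of all genes). The median was 0.50, against 0.87 for Nudt7 and 1.03 for Nudt19. On log2(TPM + 1) 2 were higher and 6 lower, with a median of -0.07. That scale called 62.4% of all genes, and 11.9% of those were higher. Relative to the median of all genes, that of the list was 0.51 with TMM, 0.52 with library totals and 0.44 on log2(TPM + 1). Nudt13, a mitochondrial hydrolase of NADH, rose by 0.85 (SE 0.10, edgeR adjusted p = 4.40e-04), Nudt6 by 1.09 (SE 0.15, edgeR adjusted p = 9.35e-04) and Nudt5 by 0.66 (SE 0.09, edgeR adjusted p = 0.00104), although Nudt5 was 0.07 and not past the threshold on log2(TPM + 1). Nudt17 (-1.96, SE 0.52) and Nudt4 (-0.35, SE 0.11) fell, with edgeR adjusted p of 0.0192 and 0.0399. Nudt17 lost its call without Control 1, Control 2, ADISSP 1 or ADISSP 3 and stood lowest among the controls in Control 3 (1.03 CPM, against 2.67 and 3.31). B cell markers were also lowest there among the controls, and their part in the difference of Nudt17 was not tested. Nudt4 lost its call without Control 1 or any of the ADISSP libraries. The number of Nudix genes called was 6 to 12 with 1 library left out.

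Most transcripts of enzymes that make other cofactors rose, though fewer on the TPM scale. Of 22 genes for flavin, nicotinamide, thiamine, pyridoxal, biotin, lipoate, cobalamin and molybdenum cofactors, all tested, 15 rose and 0 fell (68.2% called, beside 35.0% of all genes), with a median of 0.79. The median over all genes on the same scale was -0.01. Nampt and Naprt, which start nicotinamide adenine dinucleotide synthesis from nicotinamide and nicotinic acid, rose by 1.63 (SE 0.11, edgeR adjusted p = 1.91e-05) and 1.55 (SE 0.17, edgeR adjusted p = 2.71e-04), and the mitochondrial NAD kinase Nadk2 by 1.05 (SE 0.13, edgeR adjusted p = 4.55e-04). On log2(TPM + 1), which called 62.4% of all genes, 7 rose and 2 fell.

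PPAR alpha and genes known as its targets were read alongside because Pank1 and Vnn1 belong to its known targets in mouse liver. Of 9 tested among 12 listed, 7 rose and 0 fell (77.8% called, beside 35.0% of all genes), with a median of 1.85. Ppara itself rose from 10.6, 12.2 and 17.9 CPM in Control 1, 2 and 3 to 181, 169 and 157 CPM in ADISSP (3.65, SE 0.20, edgeR adjusted p = 1.45e-05). The thioesterase gene Acot2 rose by 1.85 (SE 0.17, edgeR adjusted p = 8.89e-05) and Cpt1b, the muscle and brown fat form of the carnitine acyltransferase, by 3.01 (SE 0.33, edgeR adjusted p = 2.28e-04). Against Control 3 alone the median log2 fold change of these 9 genes was 1.51, beside 0.0019 for all genes in that fit.

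**Figure D5:**
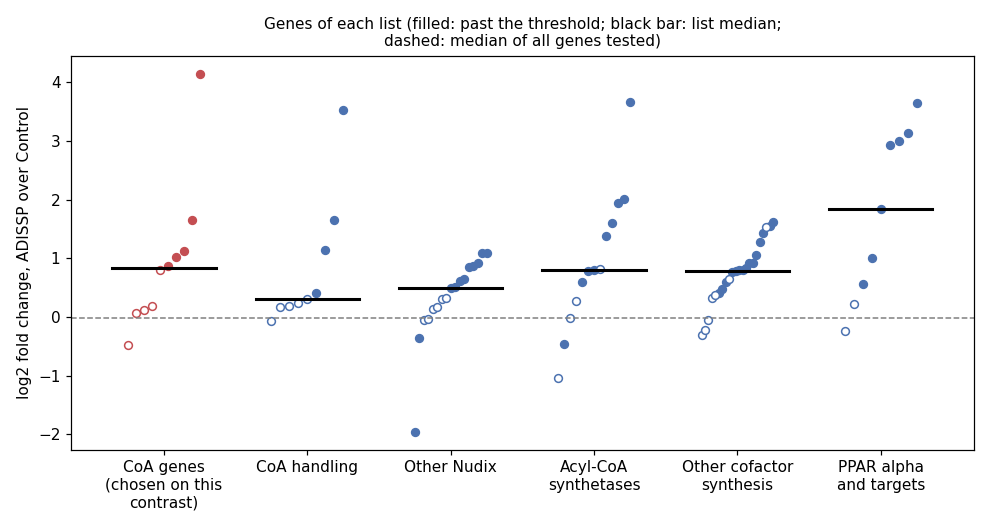
Log2 fold change of ADISSP over Control for each tested gene of the 10 coenzyme A genes (red, chosen on this contrast) and of 5 related lists (blue), sorted within each list. Filled points passed the threshold, black bars are list medians (0.83, 0.32, 0.50, 0.80, 0.79 and 1.85 from left to right) and the dashed line is the median of all genes tested, -0.01.

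The genes whose profile over the 6 libraries was nearest to that of Pank1, by the distance between centred log2 CPM, were Mpzl2 (0.29), Bmp8b (0.32), Gm47595 (0.38), Mab21l2 (0.48) and Coq8a (0.53). Mpzl2, an adhesion molecule gene, stood at 1.19, 1.27 and 1.57 CPM in Control and 22.7, 27.7 and 20.4 CPM in ADISSP. Coq8a, needed for coenzyme Q synthesis, stood at 28.3, 32.7 and 52.4 CPM in Control and 631, 673 and 575 CPM in ADISSP. Bmp8b, Gm47595 and Mab21l2 were at or under 0.273 CPM in every Control library and at 2.43 to 6.02 CPM in ADISSP, so their distances depend on the prior count of 2 added before the logarithm.

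By the GRCm39 coordinates of the deposited table, Pank1 is ENSMUSG00000033610 on chromosome 19, 34784340 to 34856855. Pank2 is ENSMUSG00000037514 on chromosome 2, 131104415 to 131141108, Pank3 is ENSMUSG00000018846 on chromosome 11, 35660311 to 35682112, and Pank4 is ENSMUSG00000029056 on chromosome 4, 155048580 to 155065395. Ppcs is ENSMUSG00000028636 on chromosome 4, 119275727 to 119279617, Ppcdc is ENSMUSG00000063849 on chromosome 9, 57292378 to 57347407, and Coasy is ENSMUSG00000001755 on chromosome 11, 100973391 to 100977445. Nudt7 is ENSMUSG00000031767 on chromosome 8, 114860297 to 114881479, Nudt19 is ENSMUSG00000034875 on chromosome 7, 35246610 to 35255729, and Vnn1 is ENSMUSG00000037440 on chromosome 10, 23770586 to 23781241. Genes on the opposite strand overlap one end of Pank2 (Rnf24), Nudt19 (B230322F03Rik) and Pank4 (Gm57104), and Gm14233 overlaps Pank2 on its own strand. Rnf24 had 719 to 1055 counts in Control and 618 to 864 in ADISSP (log2 fold change 0.33, SE 0.15, not past the threshold), and the other 3 had 0 to 18 counts per library. The strand setting of the counting is not given in the sources used here, so reads of overlapping genes cannot be told apart.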

How the data were processed

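RNA-seq of inguinal fat from 3 ADISSP and 3 Control libraries was used, each labelled a biological replicate. The authors' deposited tables hold raw read counts per gene for 57180 genes, and FPKM and TPM for 23524. STAR, featureCounts and the build mm39 (GRCm39) are named in the submitters' processing notes. Their versions, the annotation release and the strand setting are not stated there. From the deposited FPKM only gene lengths were derived. TPM served for levels between genes and as an alternative scale.

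Counts were filtered with filterByExpr (17320 genes kept), TMM-scaled and tested with edgeR 4.0.16 (quasi-likelihood, robust, R 4.3.3) with Benjamini-Hochberg adjustment and a threshold of 0.05. Standard errors are the size of the log2 fold change over the square root of F. The procedure was tested on simulated data. Alternatives were DESeq2 1.42.0, library totals, upper-quartile factors, limma 3.58.1 on log2(TPM + 1) and log2(TPM + 0.1), no filter, each library left out, Control 3 as the only control, and a replicate block. Every library pair differed beyond sampling noise (chi-square per degree of freedom 9.31 or more).

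The 10 genes and all lists were chosen with earlier results of these data known. Named are the 10 genes, all genes of the handling list and the microRNA genes, the 3 called genes of smallest p and those called against the majority in each other list, the next 2 in order of p, the 5 profiles nearest to Pank1 and overlapping genes. Sequences are RefSeq's (GRCm38.p6), matched by symbol.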

Additional observations from a re-analysis of the deposited data

How the results depend on the processing

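The 6058 changed genes became 10804 with limma on log2(TPM + 1) and 10736 on log2(TPM + 0.1), which change test and scale together, and 3190 with Control 3 as the only control, where the spread comes from the ADISSP libraries alone, and lay between 3823 and 8517 with 1 library left out. The 3823 was without Control 1 and the 8517 without Control 3. The 3197 higher became 1756 with library totals, 1284 and 1274 on the TPM scales and 1886 with Control 3 only. The 2861 lower became 6600, 9520, 9462 and 1304 in that order, and 1563 to 4212 with 1 library left out.

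Of the 10 coenzyme A genes, 0 were lower, against 1 with DESeq2, upper-quartile factors, no filter or the replicate block, 2 with library totals, 3 on either TPM scale, and 0 to 1 with 1 library left out. Changed Nudix genes went from 11 to 7 with Control 3 only and 6 to 12 with 1 library left out, and cofactor genes from 15 to 9 and 9 on the TPM scales.

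Library totals, log2(TPM + 1) and log2(TPM + 0.1) moved the median of all genes by -0.35, -0.50 and -0.57, and in that order signs turned for Pank2 (-0.29, -0.50, -0.52, and -0.016 with upper-quartile factors), Pank4 (-0.23, -0.44, -0.45), Ppcdc (-0.16, -0.35, -0.38), Slc5a6 (-0.14, -0.32, -0.33), Vnn3 (-0.10, -0.35, -0.36), Ado (-0.18, -0.39, -0.41), Dcakd (-0.029, -0.25, -0.25) and Rnf24 (-0.019, -0.22, -0.23), and on the TPM scales for Slc25a16 (-0.16, -0.16). Relative to that median, Pank2 (0.0057 to 0.11), Pank4 (0.017 to 0.22) and Ppcdc (0.12 to 0.31) were positive in all 14 alternatives. Slc5a6 was -0.0037 without Control 1, 0.52 without Control 3 and -0.31 with Control 3 only, Vnn3 -0.073 with Control 3 only, and Aasdhppt 0.058 without Control 1, 0.0047 without ADISSP 2 and 0.050 with Control 3 only. The cause was not tested.

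With the replicate number as a block 5541 genes changed (2947 higher, 2594 lower), and Pank3 passed (-0.49). Same-numbered libraries correlated at 0.03, 0.08 and 0.05 in their deviations from the group means, too weakly to treat the numbers as pairs. Each library correlated best with its own number, a hint from the data only. The microRNA genes and Nudt8 had too few counts to be tested, and the p-values rest on 3 libraries a group in 1 labelled batch.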

Other observations

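Other genes of the lists stood out after their values were seen, and are given as values. Acsm3, a medium-chain acyl-CoA synthetase gene, stood at 1.53, 2.26 and 4.72 CPM in Control 1, 2 and 3 and 38.5, 36.5 and 31.7 CPM in ADISSP 1, 2 and 3 (log2 fold change 3.67, SE 0.38), with no overlap. Among the PPAR alpha genes, Pdk4, which restrains pyruvate oxidation, stood at 98.7, 96.9 and 191 CPM in Control and 1149, 1214 and 1024 CPM in ADISSP (3.13, SE 0.29). Plin5, a lipid droplet protein gene, stood at 13.8, 12.6 and 27.1 CPM in Control and 137, 148 and 124 CPM in ADISSP (2.94, SE 0.32). Control 3 was the highest control for all 3 genes.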
